A study of Mus musculus with 47 samples.

Results

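Histone genes were read from arrays of 17 populations of sorted mouse bone marrow cells. A gene counted as a member if its single symbol in the platform annotation began with H1f, H2ac, H2bc, H2az, H3c, H3f or H4c, or with the older Hist1h, Hist2h or Hist3h. This gave 17 of 18194 named genes. Of these, 10 are clustered genes, which lie in the histone gene clusters, and 7 are replication-independent genes, which lie apart from them. The labels name the groups by short forms, given here with what they usually denote. LTHSC and STHSC are long-term and short-term stem cells, and LMPP are lymphoid-primed progenitors. MkE are progenitors of megakaryocytes and red cells, MkP those of megakaryocytes, and PreCFUE, then CFUE, then ProE are red cell stages. GMP and GM are granulocyte and macrophage progenitors. CLP are common lymphoid progenitors, ETP early T-lineage progenitors, CD4 a T cell group and NKmature natural killer cells. ProB and PreB are B cell stages, and IgM+SP, which the labels do not spell out, express B cell genes. Every group came from adult C57Bl6 mice without a stated treatment or mutation, with 2 to 5 biological replicates and RNA of 2000 cells on each of the 47 arrays. The labels do not say whether animals were pooled.

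Histones package DNA into nucleosomes, with H2A, H2B, H3 and H4 in the core and H1 on the linker DNA. Clustered genes are mostly transcribed in S phase to supply new chromatin, and their transcripts typically end in a stem-loop in place of a poly(A) tail. Replication-independent genes encode variants. Those for H2A.Z and the replacement H3 are spliced and polyadenylated, and are used throughout the cell cycle. The primer used to amplify the RNA is not given in the sources used here, and the part of tail type in the measured levels was not tested.

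The clustered members lay on chromosome 13 (H1f2, H1f4, H1f6, H2bc22, H3c4, H3c7 and H3c11) and chromosome 3 (H2ac19, H2bc18 and H2bc21). The others were H1f8 and H1f10 on chromosome 6, H1f7 on 15, H2az1 on 3, H2az2 and H3f3b on 11, and H3f3a on 1, in GRCm38.p6. RefSeq promoters of that build matched 15 of 17 members. Those shown are of genes the results turn on: the linker genes H1f2 (plus strand, chr13:23738557-23738806) and H1f4 (minus, chr13:23622559-23622808), the H2A gene H2ac19 (minus, chr3:96240375-96240624) and the H2A.Z gene H2az1 (plus, chr3:137864237-137864486). Each line gives the 250 bases before the gene's start, 5′ to 3′ on the gene's strand, and capitals mark the TATA box, CCAAT box and H1 box letters, spelled out after the sequences, on either strand.
H1f2: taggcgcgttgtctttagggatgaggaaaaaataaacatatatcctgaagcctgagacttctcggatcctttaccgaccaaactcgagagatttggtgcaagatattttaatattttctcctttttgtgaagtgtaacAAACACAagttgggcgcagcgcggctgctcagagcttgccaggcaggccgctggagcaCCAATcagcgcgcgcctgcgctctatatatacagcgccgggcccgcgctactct
H1f4: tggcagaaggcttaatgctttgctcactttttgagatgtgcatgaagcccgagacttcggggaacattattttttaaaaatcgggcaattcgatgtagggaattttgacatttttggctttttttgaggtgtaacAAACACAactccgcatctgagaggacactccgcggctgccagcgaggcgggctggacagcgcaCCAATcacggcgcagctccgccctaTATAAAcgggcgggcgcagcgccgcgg
H2ac19: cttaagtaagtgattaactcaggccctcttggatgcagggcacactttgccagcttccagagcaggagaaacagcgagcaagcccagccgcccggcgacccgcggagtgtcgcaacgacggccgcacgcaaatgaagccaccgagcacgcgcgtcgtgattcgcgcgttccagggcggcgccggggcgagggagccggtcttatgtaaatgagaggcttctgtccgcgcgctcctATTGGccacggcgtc
H2az1: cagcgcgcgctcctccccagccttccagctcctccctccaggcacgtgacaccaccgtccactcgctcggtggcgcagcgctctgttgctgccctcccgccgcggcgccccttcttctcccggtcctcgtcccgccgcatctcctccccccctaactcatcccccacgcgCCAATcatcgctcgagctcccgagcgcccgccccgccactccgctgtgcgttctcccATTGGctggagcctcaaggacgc

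The letters AAACACA, known in H1 promoters as the H1 box, began at position -112 from the gene start in H1f2 and -115 in H1f4. CCAAT followed at -54 and -52. The same pair was found in H1f6, the testis linker gene, at -114 and -65. CCAAT on either strand was in 8 of 8 clustered and 5 of 7 replication-independent promoters, against 34.5% of 27025 mouse promoters of the same length. AAACACA was in 3 of 8 and 1 of 7, against 6.22%. TATAAA was in 4 of 8 and 1 of 7, against 13.0%, and the octamer ATTTGCAT in 1 of 8 (H2bc18) and 1 of 7 (H3f3b), against 1.61%. These matches describe letters only. None of the motifs overlapped another in the promoters shown.

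Levels are log2 of the deposited intensity, and replicate arrays of a group correlated at 0.928 to 0.997 over all probe sets. The number of arrays limits the precision. Array medians ran from 13.8 to 16.9 on the linear scale, highest on the CLP arrays, whose upper quartiles (50.2 and 50.7) were the lowest. By the female transcript Xist and the Y-linked Eif2s3y, 21 arrays held the first only, 19 the second only and 7 both, and the split ran through the LMPP, PreB and ETP groups. Most groups ranked high for their own markers, with exceptions. ProB arrays averaged 3.82 for the B cell factor Pax5 (rank 9 of 17) and 9.83 for the plasma cell gene Jchain, ETP arrays averaged 5.12 for Cd3e (rank 12), and the ProE arrays read Hba-a1 at 3.30, near the level of the other groups. On the IgM+SP and NKmature arrays the neutrophil genes S100a8 (11.64 and 12.13), Ngp (11.95 and 11.51) and Camp (9.44 and 10.13) were bright, while CD4 arrays read 4.43, 4.71 and 4.57. The red cell gene Alas2 averaged 8.42 on the CD4, 7.50 on the ProB and 6.45 on the PreB arrays, and Jchain 7.36 on the CD4 arrays. LMPP replicates 4 and 5 read the immediate early gene Fos at 3.86 and 4.28, against 13.04, 13.20 and 13.26 on replicates 1 to 3. In sorted bulk cells, fewer cells of a type and less RNA per cell cannot be told apart.

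PreB cells had the highest group mean for 8 of 17 members, 7 of them clustered (H1f2, H1f4, H2ac19, H2bc22, H3c4, H3c7 and H3c11) and the other H2az2. NKmature had the lowest mean for 6. The share of all genes with these extremes was not counted, so neither count is a result about histone genes alone. The counts also depend on the probe set: the second one of H2ac19 was highest in ProB and that of H2az2 in NKmature. Of the 15 members bright enough to be tested, 12 differed among groups in the limma F-test (adjusted p under 0.05), 7 of 9 clustered and 5 of 6 replication-independent. That is 80% of members, against 90.3% of all 13949 genes tested, so the share of histone genes that varied was no higher than the background. H1f6, H1f7 and H3c7 did not pass (adjusted p = 0.063, 0.083 and 0.058), and H1f8 and H2bc18 stayed below 3.889, the median of all log2 values, in every group.

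**Figure D1:**
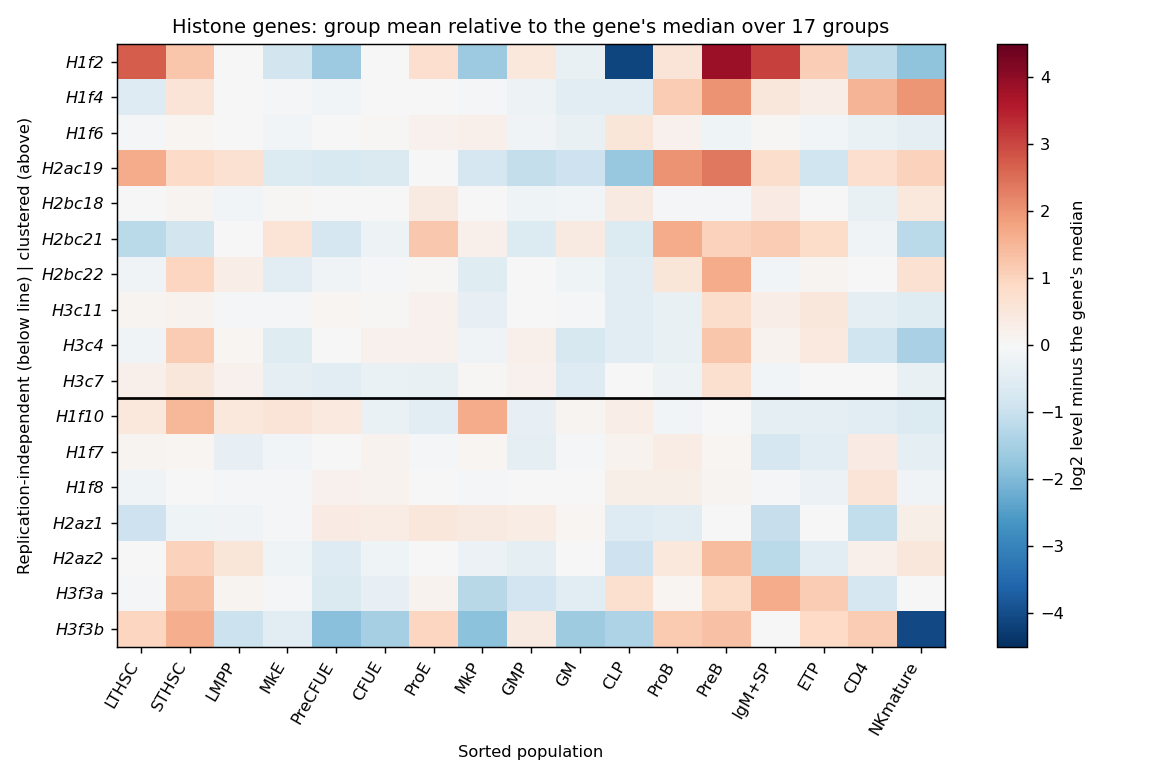
Group mean log2 level of each histone gene minus that gene's median over the 17 groups, as colour. Clustered genes lie above the black line and replication-independent genes below it. The strongest colours are H1f2 in PreB (high) and CLP (low) and H3f3b in NKmature (low).

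H1f2 (Hist1h1c, chr13:23738807-23739531), a linker histone of somatic cells, spanned the widest range of group means of all members, 8.0 log2 units. Replicates are given in order of their number. LTHSC arrays read 11.69 and 10.94, STHSC 9.46 and 10.17, and LMPP 10.25, 9.64, 9.72, 6.44 and 6.82. The 2 LMPP arrays with little Fos were thus the 2 with least H1f2. MkE read 7.43, 7.74, 8.15 and 7.62, PreCFUE 7.35, 6.79 and 6.67, CFUE 8.49, 8.62 and 8.51, ProE 9.47, 9.15 and 9.37 and MkP 6.85, 7.03 and 6.95. GMP read 9.23, 9.08 and 8.87 and GM 8.41 and 8.10. Erythroid and myeloid groups therefore held the middle of the range with little spread. Among lymphoid groups, CLP read 5.11 and 3.75, ProB 8.64 and 9.67, PreB 11.92, 12.73, 12.75 and 12.31 and IgM+SP 11.67 and 11.64. ETP read 7.98, 10.55 and 10.48, CD4 8.20 and 6.64 and NKmature 7.05 and 6.49. Every PreB array lay above every array of every other group. On the ETP arrays Fos ran the same way, at 9.59, 12.75 and 13.00, and the part of immediate early genes in H1f2 levels was not tested.

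H1f4 (Hist1h1e, chr13:23621777-23622558), another somatic linker gene, was dim, over the median of all values in 4 groups only. PreB arrays read 5.42, 5.13, 5.41 and 4.83, NKmature 4.86 and 5.46 and CD4 4.85 and 4.58. ProB arrays disagreed at 5.47 and 3.15, and the lowest group mean was that of LTHSC, with arrays at 2.68 and 2.49. The 4 groups over the median were thus lymphoid, but other lymphoid groups were not bright. CLP (mean 2.71) came next above LTHSC, and ETP (3.47) and IgM+SP (3.68) lay below STHSC (3.76). Because H1f4 and the H2B gene H2bc22 are low, a floor of 16 on the intensity shrank their differences in the comparisons given further on. With it, H1f4 came to 0 in STHSC minus LTHSC, 0.71 in CD4 minus ETP and 1.16 in NKmature minus CLP, the last still called. H2bc22 came to 0.36 in STHSC minus LTHSC, -0.82 in IgM+SP minus PreB and 0 in NKmature minus CLP, none of them called.

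H1f10 (H1fx, chr6:87980421-87981482), a replication-independent linker histone, had another order, with MkP on top. MkP arrays read 6.81, 6.34 and 6.55 and STHSC 6.74 and 6.05. LTHSC read 5.51 and 5.24, LMPP 5.45, 5.17, 5.71, 5.32 and 5.29, MkE 5.5, 5.55, 5.44 and 5.45 and PreCFUE 5.07, 5.81 and 5.12. MkP and STHSC thus led, and the LTHSC, LMPP, MkE and PreCFUE means lay close together below them. CFUE read 4.57, 4.45 and 4.82, ProE 4.26, 4.65 and 4.39, GMP 4.31, 4.48 and 4.85 and GM 4.91 and 5.14. CLP read 5.12 and 5.30, ProB 4.81 and 4.74, PreB 4.71, 5.12, 4.74 and 5.06 and IgM+SP 4.68 and 4.29. ETP read 4.68, 4.40 and 4.41, CD4 4.33 and 4.48 and NKmature 4.5 and 4.10. No array outside MkP and STHSC passed 5.81. The germ cell linker genes H1f6, H1f7 and H1f8 stayed low, with single arrays from 3.20 to 4.62, 2.68 to 4.57 and 2.68 to 4.19.

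H2ac19 (Hist2h2aa2, chr3:96239779-96240374), a core H2A gene, had its highest group means in PreB, ProB and LTHSC, followed by NKmature, STHSC, IgM+SP, CD4 and LMPP. PreB arrays read 9.19, 9.11, 7.73 and 8.03, ProB 8.87 and 7.41, LTHSC 8.09 and 7.56 and STHSC 7.04 and 6.99. CLP had the lowest mean of all groups, with arrays at 4.59 and 4.30. The erythroid, megakaryocyte and myeloid groups (MkE, PreCFUE, CFUE, ProE, MkP, GMP and GM) had arrays from 4.90 to 6.20. NKmature arrays read 7.26 and 7.09. H2ac19 has near-identical copies, and its probe set may read them too.

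H2bc21 (Hist2h2be, chr3:96221072-96223738), a core H2B gene, fell and then rose along the erythroid line. MkE arrays read 8.51, 8.34, 8.63 and 8.21, PreCFUE 7.20, 7.09 and 6.89, CFUE 7.71, 7.48 and 7.50 and ProE 9.0, 9.17 and 8.89. The PreCFUE and CFUE arrays all lay below those of the stages on either side. LTHSC read 6.25 and 6.95, STHSC 6.73 and 7.25 and LMPP 7.37, 6.71, 7.74, 8.59 and 8.60. MkP read 8.20, 8.29 and 7.58, GMP 7.39, 7.24 and 6.94 and GM 8.17 and 8.24. Among LMPP arrays the order was the opposite of H1f2, with replicates 4 and 5 highest. CLP read 8.03 and 6.37, ProB 10.14 and 8.84, PreB 8.36, 8.20, 9.42 and 9.39 and IgM+SP 8.91 and 8.96. ETP read 8.69, 8.56 and 8.68, CD4 7.96 and 7.31 and NKmature 6.15 and 7.04. The other core H2B genes were dim. H2bc22 (Hist1h2bp) passed the median of all values in 2 groups, PreB at 4.95, 5.51, 4.45 and 4.38 and STHSC at 3.51 and 4.73, and H2bc18 ran from 2.81 to 4.05 over all arrays.

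The clustered H3 genes encode the H3 laid down at replication, and all were dim to moderate. H3c4 (Hist1h3d, chr13:23575763-23576266) read 6.97, 6.58, 5.39 and 5.62 in PreB, 6.39 and 5.68 in STHSC and 3.25 and 3.61 in NKmature. H3c11 (Hist1h3i) ran from 3.35 to 5.53 and H3c7 (Hist1h3f) from 3.59 to 5.89 over all arrays, with the highest array of each in PreB. Over the 17 group means H3c11 correlated with H3c4 (r = 0.80) and with H1f2 (r = 0.79); these points share arrays and scaling, and the values are descriptive.

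H2az1 (H2afz, chr3:137864487-137866922) encodes H2A.Z, a replication-independent H2A variant of promoters and enhancers. Among members over the median of all values in every group it varied least, with group means within 1.60 log2 units. LTHSC arrays read 11.62 and 12.05, STHSC 12.48 and 12.66 and LMPP 12.71, 12.57, 12.47, 12.65 and 12.72. MkE read 12.65, 12.75, 12.76 and 12.62, PreCFUE 13.08, 13.16 and 13.17, CFUE 13.16, 13.02 and 13.15, ProE 13.25, 13.31 and 13.26 and MkP 13.15, 13.30 and 13.05. The committed erythroid and megakaryocyte arrays after MkE all lay at 13.02 or higher. GMP read 13.16, 13.12 and 13.08 and GM 12.87 and 12.83. CLP read 12.17 and 12.24, ProB 12.55 and 11.96, PreB 13.00, 12.91, 12.50 and 12.69 and IgM+SP 11.73 and 11.73. ETP read 12.86, 12.70 and 12.79, CD4 11.72 and 11.62 and NKmature 13.03 and 13.04. CD4, IgM+SP and LTHSC thus formed the bottom, and the LTHSC arrays overlapped with both of the other groups. This order is of the brightest probe set. The second H2az1 probe set was lowest in LTHSC (10.48) and highest in MkP (12.04). Probe sets listed with 2 H2az symbols were lowest in CLP (10.21 and 8.53) and highest in NKmature (12.88 and 11.66).

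H2az2 (H2afv, chr11:6427226-6444511) encodes the other H2A.Z and did not share that order. PreB arrays read 12.11, 12.46, 10.17 and 10.30, LMPP 11.12, 10.93, 9.68, 10.10 and 10.11 and STHSC 10.94 and 10.82. The PreB arrays fell into 2 pairs, and LMPP replicates 1 and 2 stood above the other 3. LTHSC read 9.98 and 9.69, MkE 9.66, 9.76, 9.55 and 9.64, PreCFUE 9.52, 9.36 and 8.91 and CFUE 9.58, 9.69 and 9.67. ProE read 9.85, 9.90 and 9.82, MkP 9.25, 9.80 and 9.63, GMP 9.47, 9.54 and 9.13 and GM 9.82 and 9.89. These 8 groups stayed between 8.91 and 9.98. CLP read 8.98 and 8.83, ProB 10.31 and 10.31, IgM+SP 8.69 and 8.57 and ETP 9.33, 9.48 and 9.27. CD4 read 10.13 and 10.02 and NKmature 10.19 and 10.46. IgM+SP and CLP were the lowest groups. The group means of H2az1 and H2az2 correlated at r = 0.10 over 17 groups. This order and correlation are of the brightest probe set of each gene. The second H2az2 probe set, a dimmer one, was highest in NKmature (7.556) and lowest in CLP (4.745).

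H3f3a (chr1:180802560-180813605) and H3f3b (chr11:116021961-116026039) encode the same replacement H3, deposited outside replication. H3f3a read 7.48 and 7.53 in IgM+SP, 7.32 and 7.11 in STHSC, 5.74, 7.0 and 8.24 in ETP and 7.61, 6.23, 6.50 and 6.30 in PreB. LTHSC read 5.84 and 5.73, LMPP 7.07, 7.25, 4.85, 5.67 and 5.06, CLP 5.85 and 7.29 and ProB 6.23 and 5.67. The ETP and LMPP arrays were far apart within their groups. MkE read 6.03, 6.18, 5.33 and 5.58, PreCFUE 5.47, 4.97 and 5.14, CFUE 5.44, 5.54 and 5.49, ProE 5.84, 6.03 and 6.20 and MkP 4.75, 4.64 and 4.39. GMP read 4.79, 4.86 and 5.33, GM 5.12 and 5.65, CD4 4.88 and 5.30 and NKmature 5.86 and 5.84. MkP had the lowest mean. These levels are of 1 probe set, as are those of H3f3b below. Probe sets listed with 6 H3f symbols were brighter than H3f3a in every group, with group means from 8.65 (CLP) to 13.32 (IgM+SP). On the set that read 13.32, MkP averaged 13.26 and MkE 13.07.

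H3f3b read 7.47 and 9.55 in LTHSC, 8.04 and 10.35 in STHSC and 8.04, 9.55, 7.85, 3.54 and 4.01 in LMPP. LMPP replicates 4 and 5, the arrays with little Fos, stood far below the other LMPP arrays. MkE read 6.70, 6.81, 8.15 and 6.63, PreCFUE 5.67, 5.73 and 5.67, CFUE 6.31, 5.94 and 5.91, ProE 8.29, 8.81 and 8.46 and MkP 5.23, 6.30 and 5.56. GMP read 8.20, 7.81 and 7.83, GM 6.09 and 5.81 and CLP 5.51 and 6.81. ProE thus stood above the other erythroid stages. ProB read 7.52 and 9.93, PreB 9.62, 10.35, 7.78 and 7.70 and IgM+SP 7.60 and 7.51. ETP read 8.40, 8.28 and 8.63, CD4 8.85 and 8.57 and NKmature 3.33 and 3.66. The NKmature arrays and LMPP replicates 4 and 5 were the lowest 4 of 47. Probe sets listed with 6 H3f symbols did not all follow this gene: in NKmature minus CLP they ran from -0.87 to 1.87. Their NKmature means lay between 10.09 and 12.27. On the set at 12.27, NKmature was the lowest of the 17 groups. On another, NKmature (10.09) and CLP (10.07) were lowest, against 12.82 in PreB. On the others NKmature lay above CLP, by 1.25 to 1.87, so a low NKmature level was seen on some shared sets only.

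**Figure D2:**
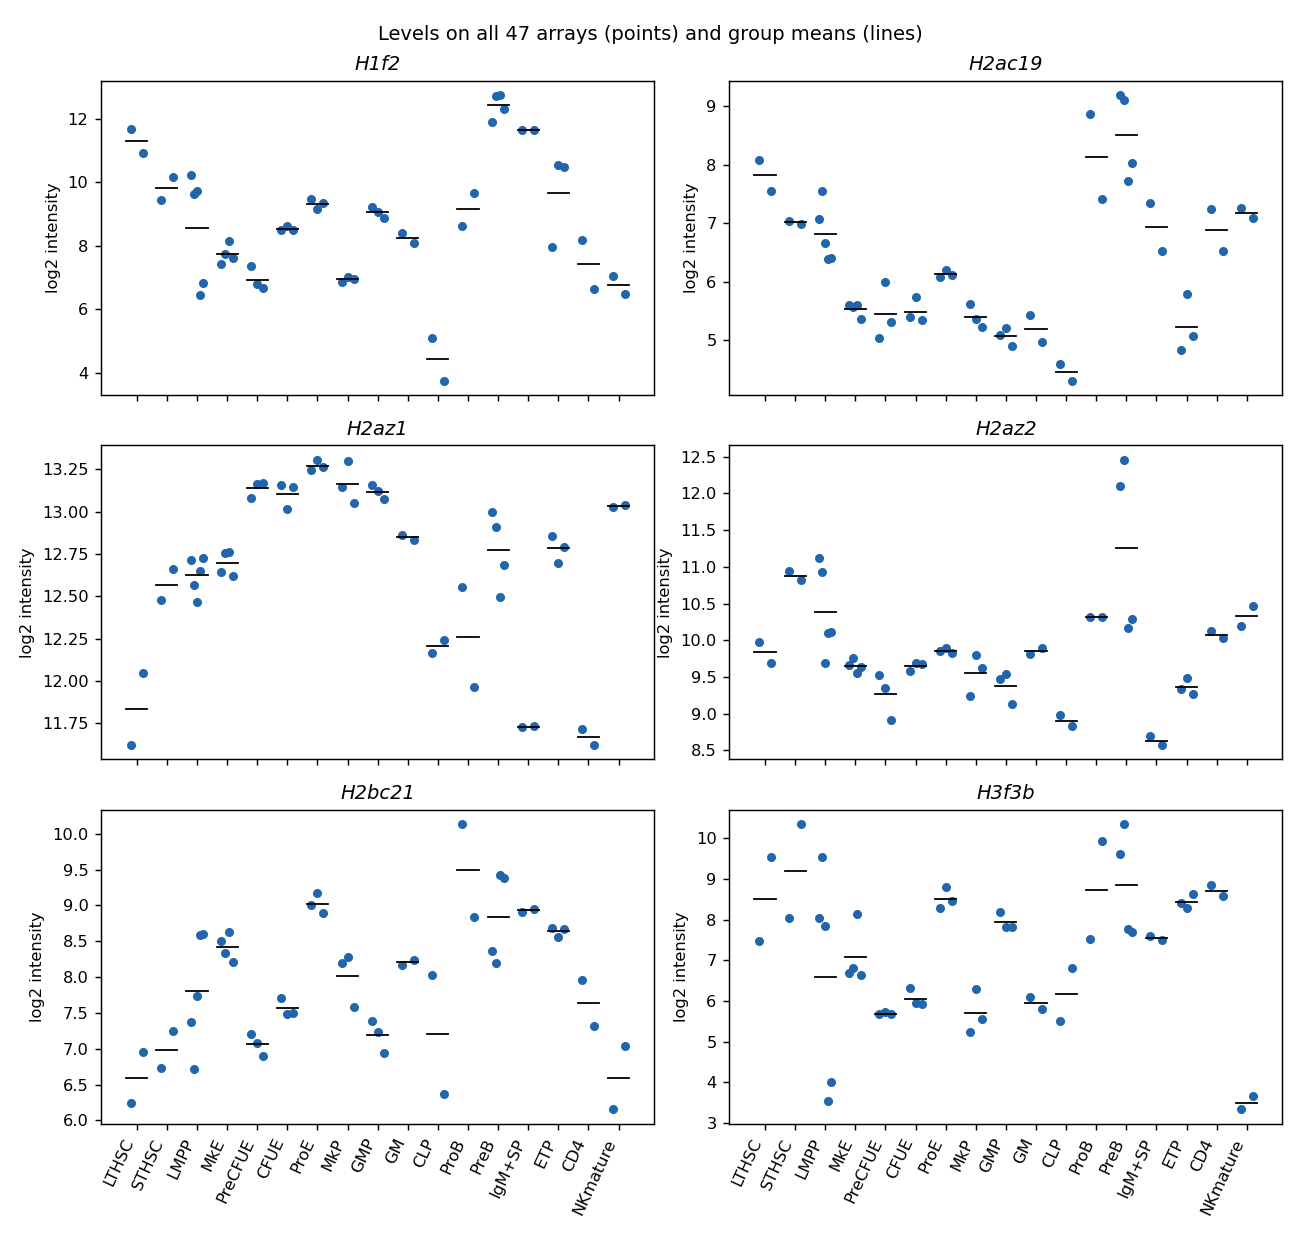
Log2 intensity of 6 histone genes on all 47 arrays, 1 point an array, with group means as lines. H1f2 peaks in PreB and is lowest in CLP, H2az1 is lowest in CD4, IgM+SP and LTHSC, and LMPP arrays split in H1f2 and H3f3b.

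On the brightest probe set of each gene, H2az1 moved across groups with the genes of DNA replication, and the other tested members of either class did not. Over 17 group means, H2az1 correlated with the mean of 20 DNA replication genes at r = 0.92 (rho = 0.90) and with the mean of 18 mitosis genes at r = 0.85 (rho = 0.65). H1f2 gave r = -0.07 and H2ac19 r = -0.41 with the replication genes, and H3c4 gave the highest value after H2az1, 0.27. The other replication-independent members ran from -0.32 (H3f3b) to 0.04 (H1f10). With 6 immediate early genes, a list chosen after earlier results of these arrays were seen, H2ac19 gave r = 0.69, H3c7 0.68, H3f3a 0.66, H3f3b 0.64, H1f2 0.62 and H2az1 -0.68. The other tested members ran from -0.065 (H1f7) to 0.51 (H2bc22) with that list. These are descriptions over 17 means that share libraries and scaling.

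**Figure D3:**
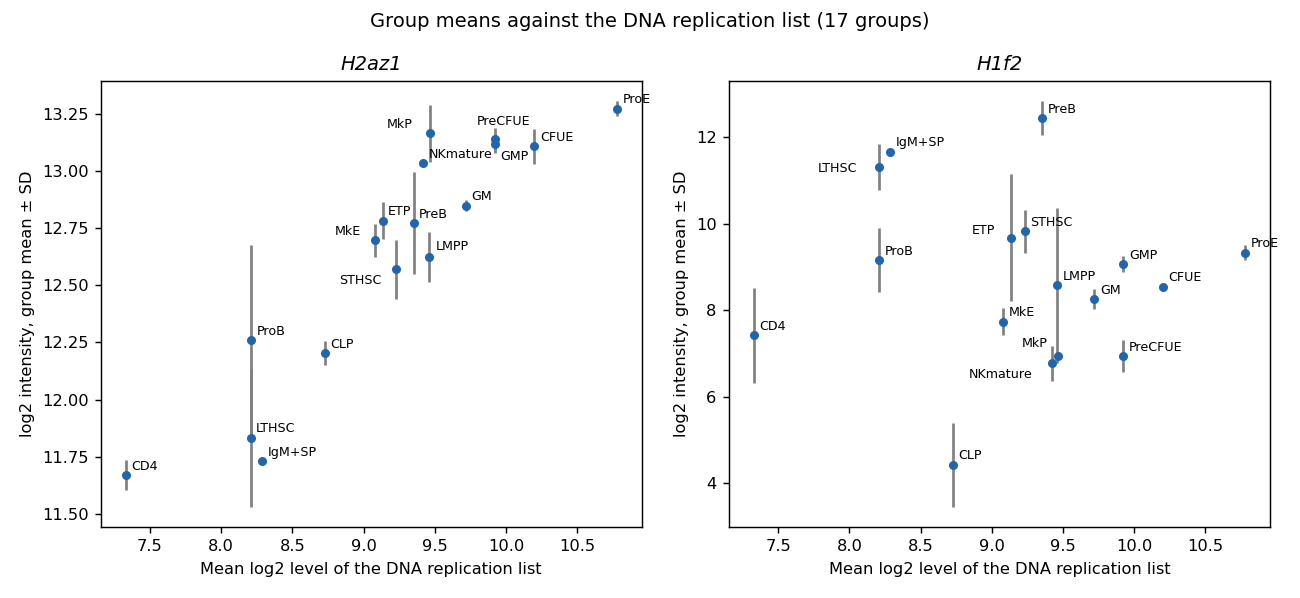
Group mean ± SD of H2az1 (left) and H1f2 (right) in log2 intensity against the mean log2 level of 20 DNA replication genes, 1 point a group. H2az1 climbs from CD4 to ProE, and H1f2 shows no such order.

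In all, 10 comparisons of groups were tested with limma, and a gene was called at an adjusted p under 0.05 and at least a 2-fold difference. Differences are log2 ± SE. Lack of overlap between arrays was common in these small groups. It held for 12 of 15 tested members in NKmature minus CLP and 10 of 15 in STHSC minus LTHSC, called or not. The share of all genes without overlap was not counted, so lack of overlap is no result about histone genes alone. The comparison of mature lymphocytes with all other groups uses every array, and STHSC, LMPP and MkE each enter 2 of the other 9, so these results share arrays.

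From LTHSC to STHSC, 3 of 15 members were called higher and none lower (20%, against 6.81% of all genes, 2.06% higher and 4.75% lower). H1f10 was higher by 1.02 ± 0.24 (adjusted p = 0.0047), H1f4 by 1.17 ± 0.39 (0.047) and the H2B gene H2bc22 by 1.11 ± 0.34 (0.029), with no overlap between the arrays of the groups. STHSC read H1f4 at 3.69 and 3.82, and LTHSC read H2bc22 at 2.99 and 3.02. H2az1 was higher by 0.73 ± 0.17 (adjusted p = 0.0044), under the 2-fold limit, and H1f2 differed by -1.5 ± 0.78 (0.25). In the same comparison 17 of 18 mitosis and 6 of 20 DNA replication genes were called higher. The count did not hold with fewer arrays: leaving out any 1 of the 4 arrays left 0 or 1 member called. H1f4 lost its call without each array in turn, H1f10 without LTHSC replicate 2 (0.88) or STHSC replicate 1 (0.67), and H2bc22 without LTHSC replicate 1, LTHSC replicate 2 or STHSC replicate 2 (0.51 without the last, against 1.72 without STHSC replicate 1).

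From STHSC to LMPP, H1f10 was the 1 member called, lower in LMPP (-1.0 ± 0.20, adjusted p = 0.00087; 6.67% of members against 5.42% of all genes, 3.92% higher and 1.5% lower). Its call ended without LMPP replicate 2, 4 or 5 (-0.95, -0.99 and -0.98, under 2-fold) and without STHSC replicate 1 (-0.66). It also ended, just under 2-fold, after centring (-0.99) and with the class or the replicate number as a block, and in a fit of these groups alone (adjusted p = 0.076). The count of called members was 3 without LMPP replicate 1 or 2, 2 without replicate 3, and 0 without replicate 4 or 5 or both. H3f3b differed by -2.60 ± 0.93 (adjusted p = 0.073) with overlapping arrays. Of 18 mitosis genes, 1 was called higher in that comparison.

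From LMPP to GMP, H2ac19 and H2az2 were called lower (13.3% of members, against 16.8% of all genes, 10.6% higher and 6.24% lower). GMP arrays read H2ac19 at 5.08, 5.20 and 4.90 and LMPP at 7.07, 7.55, 6.66, 6.39 and 6.41, without overlap, a difference of -1.76 ± 0.31 (adjusted p = 1.7e-05) that was called in every alternative run. H2az2 differed by -1.01 ± 0.32 (0.011), and fell under the 2-fold limit without GMP replicate 3 (-0.89), LMPP replicate 1 (-0.83) or LMPP replicate 2 (-0.88). H2az1 was higher by 0.50 ± 0.13 (0.0021). The second probe set of H2ac19 gave -1.67 and that of H2az2 gave -1.02.

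In the erythroid line, H2bc21 was the only member called in either step. It was lower in PreCFUE than in MkE (-1.36 ± 0.36, adjusted p = 0.0073), where 6.67% of members and 7.31% of all genes were called (2.87% higher and 4.44% lower), and the call held in every alternative run. It was higher in ProE than in CFUE (1.46 ± 0.39, adjusted p = 0.012), where 6.67% of members and 4.62% of all genes were called (1.78% higher and 2.84% lower). That call ended without ProE replicate 2 (1.38, adjusted p = 0.054) and with arrays classed by Xist and Eif2s3y (0.33, adjusted p = 0.73). CFUE arrays held Xist and ProE arrays Eif2s3y. Of 11 cell cycle inhibitors, 4 were called lower in PreCFUE and 3 higher in ProE. In the first step 7 of 20 DNA replication and 9 of 18 mitosis genes were called higher, and in the later step 2 of 20 and 2 of 18. H3f3b differed by 2.47 ± 0.91 between ProE and CFUE (adjusted p = 0.088) with no overlap of arrays.

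Between MkE and MkP, H1f10 was called higher (1.08 ± 0.18, adjusted p = 3.1e-05) and H3f3a lower (-1.19 ± 0.44, adjusted p = 0.038) in MkP, 13.3% of members against 11.5% of all genes (2.96% higher and 8.55% lower). The arrays did not overlap for either gene. Shared H3f probe sets gave -0.55 to 0.19 in the same comparison, so the fall of H3f3a was not seen on all of them. H1f10 fell just under 2-fold without MkP replicate 1 (0.96) and after centring (0.97). H3f3a lost its call without MkE replicate 1 or 2 or any 1 MkP array (adjusted p = 0.066 to 0.13), after quantile normalization (0.053) and with the floor of 16 (0.056). With MkP replicate 1 left out no member was called. DNA replication genes were called higher in 4 of 20 cases and mitosis genes in 6 of 18, and 4 of 11 inhibitors were lower.

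Late and early lymphoid groups were compared in 3 lines. From PreB to IgM+SP, 5 of 15 members were called lower and none higher (33.3%, against 12.8% of all genes, 3.4% higher and 9.43% lower). H2az2 differed by -2.63 ± 0.38 (adjusted p = 2.4e-06), H2bc22 by -1.79 ± 0.29 (1.8e-05), H2ac19 by -1.58 ± 0.36 (0.0015), H1f4 by -1.52 ± 0.33 (0.0010) and H2az1 by -1.04 ± 0.15 (2.9e-06). No array overlapped between the groups in any of these. IgM+SP arrays read H2bc22 at 2.96 and 3.10, H1f4 at 3.52 and 3.84 and H2ac19 at 7.35 and 6.52. H1f2 stayed high, at -0.77 ± 0.68 (adjusted p = 0.45). The median over tested members was -0.84, against -0.02 over all genes. In this comparison 12 of 20 DNA replication genes and 18 of 18 mitosis genes were called lower.

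PreB replicates 1 and 2 held Xist and 3 and 4 Eif2s3y, and the arrays of these pairs did not overlap in H2az1, H2az2, H2ac19, H2bc22, H3c4, H3c7, H3f3b and the low H1f6, H1f7 and H1f8 (higher in the first pair) or in H2bc21 (higher in the second). The share of all genes that separated the pairs in this way was not counted, so the list is no result about histone genes alone. The first pair was also higher in the mitosis list (9.89 and 9.82, against 8.52 and 8.36). The same held for the DNA replication list (9.615 and 9.44, against 9.22 and 9.13). Class and the level of these lists cannot be told apart in the PreB arrays. IgM+SP arrays held Eif2s3y. With class as a block, H1f4, H2bc22 and H2az2 (-1.60) stayed called, while H2ac19 (-0.95, adjusted p = 0.10) and H2az1 (-0.86, under 2-fold) did not. H2ac19 also lost its call without IgM+SP replicate 2 (-1.16, adjusted p = 0.094), and H2az1 fell just under 2-fold without PreB replicate 1 (-0.97) or 2. Without PreB replicate 4 the count was 8. In a fit of these groups alone only H1f4 was called. The neutrophil genes named above were brighter in IgM+SP than in PreB (S100a8 11.64 against 8.23), and their part in the result was not tested.

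From ETP to CD4, 2 members were called higher and 4 lower (40%, against 26.5% of all genes, 13.9% higher and 12.5% lower). H2ac19 was higher by 1.66 ± 0.38 (adjusted p = 0.00058) and H1f4 by 1.25 ± 0.35 (0.0044). CD4 arrays read H2ac19 at 7.25 and 6.53 and ETP at 4.83, 5.78 and 5.07. Lower were H1f2 (-2.25 ± 0.71, adjusted p = 0.011), H3f3a (-1.90 ± 0.53, 0.0038), H3c4 (-1.35 ± 0.48, 0.023) and H2az1 (-1.11 ± 0.16, 4.1e-07). H1f2 overlapped between the groups, since ETP replicate 1 lay under CD4 replicate 1, and the others did not overlap. H2az1 was called in every alternative run, and 16 of 20 DNA replication and 16 of 18 mitosis genes were called lower with it. Genes of other cells also differed between these arrays, Alas2 at 8.42 in CD4 and 3.08 in ETP and Jchain at 7.36 and 2.98, and their part in the result was not tested.

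The remaining CD4 calls were less stable. With the class block H2ac19 came to 0.18 (adjusted p = 0.87), H1f4 to 0.98 (0.22) and H1f2 to -2.42 (0.12), and H3c4 to -3.24. Only ETP replicate 1 lacked Xist, and CD4 arrays held Xist alone. H1f2 lost its call without CD4 replicate 2 (-1.47) or ETP replicate 2 or 3, H1f4 and H3f3a without CD4 replicate 1, H3f3a also without ETP replicate 3 (-1.28), and H3c4 without CD4 replicate 1, ETP replicate 1 or ETP replicate 3 and with the floor of 16 (adjusted p = 0.052). The count was 3 without CD4 replicate 1 or without ETP replicate 3. Shared H3f probe sets gave -1.54 to 1.79 in the same comparison, so the fall of H3f3a was not seen on all of them.

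From CLP to NKmature, 5 members were called higher and 1 lower (40%, against 41.3% of all genes, 29.1% higher and 12.1% lower), a share no higher than the background. H2ac19 was higher by 2.73 ± 0.42 (adjusted p = 1.1e-06), H1f4 by 2.45 ± 0.39 (1.7e-06), H1f2 by 2.34 ± 0.78 (0.010), H2az2 by 1.42 ± 0.43 (0.0054) and H2bc22 by 1.16 ± 0.34 (0.0035). H3f3b was lower (-2.67 ± 1.12, adjusted p = 0.039), with both NKmature arrays under the median of all values. None of the 6 overlapped between groups. The median over tested members was -0.34, against 0.17 over all genes, opposite in sign to most of these calls. NKmature arrays read H2ac19 at 7.26 and 7.09 and H2bc22 at 3.87 and 3.81, and CLP arrays read H1f4 at 2.71 and 2.71 and H2bc22 at 2.73 and 2.64. H2az1 was higher by 0.83 ± 0.17 (adjusted p = 0.00012), under 2-fold, beside 7 of 20 DNA replication and 17 of 18 mitosis genes called higher.

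The median of all genes in NKmature minus CLP shifted by 0.17 as deposited, -0.09 after quantile normalization and 0.38 after centring. H2ac19 and H1f4 kept their calls in every alternative run. H2az2 did not pass after quantile normalization (0.71, adjusted p = 0.16). H1f2 lost its call without CLP replicate 2 (1.66) or NKmature replicate 1 (2.06), and H3f3b without CLP replicate 2 (-2.02) or either NKmature array, after centring (-2.46, adjusted p = 0.062), with the floor of 16 (-2.16, adjusted p = 0.12), with a trended robust spread (adjusted p = 0.059) and with the class block (-0.34, adjusted p = 0.82). Neutrophil genes were bright on the NKmature arrays (S100a8 12.13, against 4.43 in CLP), and their part in the result was not tested.

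**Figure D4:**
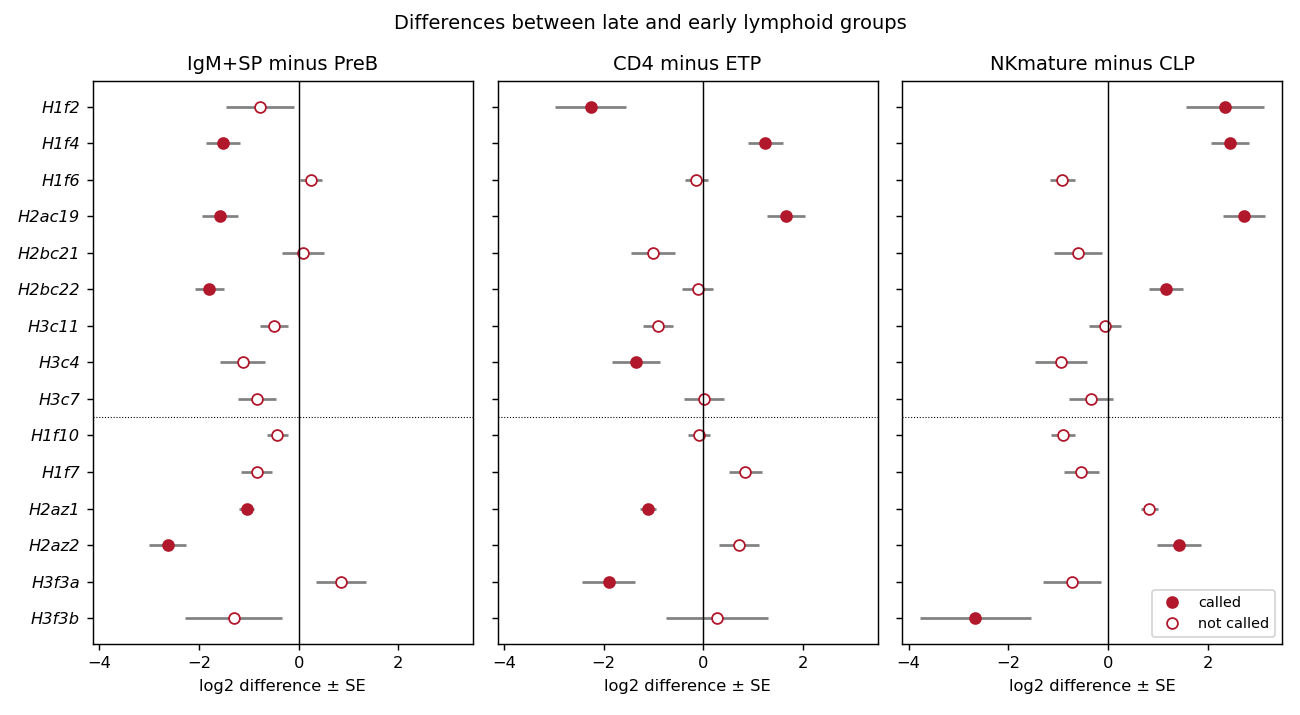
Log2 difference ± SE (limma) of the 15 tested histone genes in 3 lymphoid comparisons, clustered genes above the dotted line. Filled points were called (adjusted p under 0.05 and at least 2-fold); 5, 6 and 6 genes are filled.

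Against the mean of the other 14 groups, the mean of CD4, IgM+SP and NKmature was called for H1f4 alone, higher by 1.20 ± 0.17 (adjusted p = 1.8e-07; 6.67% of members, against 14.5% of all genes, 7.91% higher and 6.62% lower). Single arrays overlapped: PreB and 1 ProB array were as bright as CD4 and NKmature, and IgM+SP (mean 3.68) lay below STHSC (3.76), ProB and PreB. With a floor of 16 the difference was 0.49, under 2-fold. H1f10 (-0.79), H2az1 (-0.60), H3c4 (-0.82) and H2ac19 (0.84) passed the adjusted p and not the fold. Here 10 of 20 DNA replication genes and 14 of 18 mitosis genes were called lower and 7 of 11 inhibitors higher. The mature groups were not alike. The mitosis list averaged 5.10 in CD4, 6.86 in IgM+SP and 9.03 in NKmature, and the DNA replication list 7.33, 8.29 and 9.42. H2az1 averaged 13.03 in NKmature, above the 12.74 of the other groups.

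Genes that make and handle histones were counted from lists. Of 15 tested genes for histone messenger RNA synthesis and processing, 11 were called higher in NKmature than in CLP, where 29.1% of all genes were, including the stem-loop binding protein gene Slbp (1.73 ± 0.36, adjusted p = 0.00011) and the cluster activator gene Npat (2.00 ± 0.61, 0.0053). None of the 15 was lower. Elsewhere the list gave at most 3 calls a comparison, given here with the share of all genes. They were 3 higher in GMP over LMPP (10.6%) and 2 higher in LMPP over STHSC (3.92%). CD4 over ETP had 1 higher (13.9%) and 2 lower (12.5%), and IgM+SP over PreB 2 lower (9.43%).

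Of 18 tested histone chaperones, 3 were lower and 1 higher in IgM+SP over PreB, against 9.43% and 3.4% of all genes. Chaf1b, a subunit of the assembly factor CAF-1, fell by 2.14 ± 0.39 on the log2 scale (adjusted p = 1e-04), and Asf1b, an H3 and H4 chaperone of dividing cells, fell by 2.06 ± 0.32 (7.4e-06). Anp32e, which removes H2A.Z, fell with H2az1 in CD4 over ETP (-1.16 ± 0.19, limma adjusted p = 3.3e-06). In that comparison 5 chaperones and 12.5% of all genes were lower. In NKmature over CLP 5 of 18 were higher, no larger a share than the 29.1% of all genes, and 1 was lower. Higher and lower calls numbered 3 and 1 in GMP over LMPP, against 10.6% and 6.24% of all genes. They numbered 2 and 1 in PreCFUE over MkE (2.87% and 4.44%), and 1 and 1 in MkP over MkE (2.96% and 8.55%). STHSC over LTHSC and LMPP over STHSC had 1 higher each (2.06% and 3.92% of all genes), and mature lymphocytes 1 lower (6.62%). Cell cycle inhibitors not counted above had 9 of 11 higher and 1 lower in NKmature (29.1% and 12.1% of all genes). They had 3 and 1 in CD4 (13.9% and 12.5%) and 4 lower in IgM+SP (9.43%). There was 1 higher and 1 lower in STHSC (2.06% and 4.75%) and in GMP (10.6% and 6.24%), and 1 higher in LMPP (3.92%).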

How the data were processed

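Expression was measured on Affymetrix mouse arrays, 47 in all, with dual amplification of RNA from 2000 cells, per the series design text. The authors deposited 1 linear intensity per probe set and array, calculated with RMA per that text. The software and the scaling between arrays were not stated there, and values are relative within an array. Log2 was taken of the deposited intensity with no pseudocount.

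Of 45101 probe sets, 34958 had 1 symbol in the platform annotation and 932 several, from which no gene was named. The brightest probe set over all arrays stood for a gene. Differences whose other probe sets have another sign are given under the other observations; no called member was among them. The 13949 of 18194 genes with a group mean over 3.889, the median of all values, were tested. A linear model of 17 group means (30 residual degrees of freedom) was fitted with limma 3.58.1 in R 4.3.3, two-sided, with Benjamini-Hochberg adjustment within each comparison over all genes tested. The fit was tested on simulated data.

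Any member could be named; called members were described in full, and H1f2, H1f10, H2az1, H2az2, H2bc21, H3f3a and H3f3b always. H1f0 and H2bc4 were not analysed here. Members, comparisons and gene lists were chosen with earlier results of these data known. The labels call the replicates biological but name no animals, so the p-values reflect only how far these samples vary, which may be technical. Alternatives were averaged probe sets, no filter or a stricter one (over 5.968), quantile normalization, median centring, a floor of 16, a trended robust spread, a block by replicate number or by class (Xist over 7, Eif2s3y over 5), fits of only the groups compared, and omission of each array in turn.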

Additional observations from a re-analysis of the deposited data

Results flagged for a closer look

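In groups of 4 or more arrays, 51 pairs of a histone gene and a group were checked for 1 array far from the others, and 2 were found, where chance gives about 1 in 20. H3f3b, a replacement H3 gene, read 8.15 on MkE replicate 3, against 6.63 to 6.81 on the other 3 MkE arrays, a gap of 0.88 of the group's range. H2ac19, a core H2A gene, read 5.35 on MkE replicate 4, against 5.56 to 5.60 on the others, a gap of 0.87 of the range.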

How the results depend on the processing

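Among single called members under an alternative, 387 values stayed called, 80 did not and 0 turned direction. The number of members differing among groups (12) was 9 to 14 under other alternatives and 12 to 14 with 1 array left out. Counts of called members moved by over 1.5 times as follows. The stricter filter gave 1 in STHSC minus LTHSC (3 in the report), 3 in IgM+SP minus PreB (5) and 0 in mature lymphocytes (1). Quantile normalization gave 2 in LMPP minus STHSC (1) and 1 in MkP minus MkE (2). Centring gave 1 in STHSC minus LTHSC, 0 in LMPP minus STHSC, 1 in GMP minus LMPP (2) and 1 in MkP minus MkE. The floor gave 1 in STHSC minus LTHSC, 1 in MkP minus MkE and 0 in mature lymphocytes. The class block gave 5 in STHSC minus LTHSC, 0 in LMPP minus STHSC, 3 in ProE minus CFUE (1), 3 in IgM+SP minus PreB and 2 in mature lymphocytes. The compared groups alone gave 0 in STHSC minus LTHSC, 0 in LMPP minus STHSC, 2 in PreCFUE minus MkE (1), 2 in ProE minus CFUE and 1 in IgM+SP minus PreB, with fewer samples. LMPP minus STHSC gave 0 without LMPP replicates 4 and 5, an alternative chosen after seeing the data. With 1 array left out, counts ran from 0 to 1 in STHSC minus LTHSC, 0 to 3 in LMPP minus STHSC, 1 to 3 in GMP minus LMPP, 1 to 1 in PreCFUE minus MkE, 0 to 1 in ProE minus CFUE, 0 to 2 in MkP minus MkE, 4 to 8 in IgM+SP minus PreB, 3 to 7 in CD4 minus ETP, 5 to 9 in NKmature minus CLP and 1 to 1 in mature lymphocytes.

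Replicate numbers did not pair the arrays: over 311 same-numbered pairs the deviations correlated at a median of 0.0058, from -0.397 to 0.404, with 53 over 0.1. The replicate block gave 0 in LMPP minus STHSC, 2 in PreCFUE minus MkE, 2 in ProE minus CFUE, 8 in IgM+SP minus PreB and 2 in mature lymphocytes. Apart from settings that use fewer genes or arrays, the cause of each change was not tested.

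Low signal limits H1f4, H2bc22, H3c7 and H3c11, whose levels lay near the median of all values, and some groups of H3c4, H3f3a and H3f3b, each of which lost a call with the floor. Each group had 2 to 5 arrays, and a 2-fold limit close to the measured value decided several calls. All values are relative within an array.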

Other observations

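Histone genes outside the naming rule also differed. Macroh2a1, which encodes macroH2A, a variant linked to silent chromatin, had its highest group means in CLP (13.38), GM (13.16) and LMPP (13.10) and its lowest in ProE (8.19). It was lower in ProE than in CFUE (-1.54 ± 0.19, limma adjusted p = 2.3e-07), in GMP than in LMPP (-1.06 ± 0.17, 3.5e-06), in IgM+SP than in PreB (-1.13 ± 0.20, 5e-05), in CD4 than in ETP (-2.47 ± 0.21, 2.3e-12) and in NKmature than in CLP (-2.92 ± 0.23, 4e-13). H2ax, whose product marks DNA breaks, was higher in STHSC than in LTHSC (1.42 ± 0.37, 0.0094), lower in IgM+SP than in PreB (-1.88 ± 0.32, 3.1e-05) and higher in NKmature than in CLP (2.02 ± 0.37, 1.7e-05). Cenpa, the centromere H3, ran from 5.74 in CLP to 10.62 in CFUE and was higher in NKmature than in CLP (3.31 ± 0.36, 1.4e-09). H2aw had its highest means in PreB (10.12), IgM+SP (9.46) and ProB (8.83).

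Of 48 histone probe sets, 24 were listed with several symbols and name no single gene. A bright one for H4 genes (13 symbols) read 10.21 in PreB, 10.19 in ProB and 10.13 in NKmature on average, and 6.49 in MkP. Its PreB arrays ran from 9.12 to 11.85. An H3c probe set (12 symbols) averaged 8.49 in NKmature and 4.51 in CLP, and an H2ac probe set (10 symbols) averaged 10.06 in ProB and 5.47 in IgM+SP. The difference of NKmature from CLP was 3.44, 3.99 and 1.82 on these 3, and that of IgM+SP from PreB was -1.84, -1.83 and -3.40. Another H4 probe set of 13 symbols gave 1.38 and -0.97 there but had another order of groups. It averaged 7.49 in ProE, its highest group, 7.06 in PreB, 5.42 in NKmature and 4.74 in ProB. In CD4 minus ETP it gave -1.63, against 1.3 on the bright H4 set. Probe sets of 1 gene differed in sign in some comparisons in which the gene was not called. For H1f2 the brightest gave -1.5 and the others -1.34 and 0.06 in STHSC minus LTHSC, -0.77 against -0.19 and 0.20 in IgM+SP minus PreB, and -0.11 against 0.56 and 0.35 in mature lymphocytes. For H2az2 the values were 0.72 and -0.38 in CD4 minus ETP, -0.49 and 0.15 in LMPP minus STHSC, 0.21 and -0.07 in ProE minus CFUE and -0.19 and 0.14 in mature lymphocytes. H2ac19 gave -0.08 and 0.41 in PreCFUE minus MkE and -0.20 and 0.06 in LMPP minus STHSC, and H2bc21 0.09 and -0.46 in IgM+SP minus PreB. H1f7 differed in sign in STHSC minus LTHSC, LMPP minus STHSC, IgM+SP minus PreB and CD4 minus ETP.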
